A study of Mus musculus with 6 samples.

Results

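The genes described here are 40 genes of glucose breakdown and of the hypoxia response, chosen by name and role from a list of 17 glycolytic enzymes, 4 sugar and lactate transporters, 3 kinases at branch points of glucose use, 4 genes of hypoxia-inducible factor (HIF) and its prolyl hydroxylases, and 12 other HIF targets. They are 40 of the 42365 genes in the deposited count table. Of these, 39 were found by symbol, and Ero1l, an older symbol, by its Ensembl ID, which is deposited as Ero1a. RNA was sequenced from the mouse neural progenitor cell line NPC. The 2 parental libraries carry the genotype WT. Their titles call them clone 1 and clone 2, and whether these are separate parental clones or libraries of 1 line is not given. The other 4 libraries carry the genotype KO: 2 come from knockout clone 1 and 2 from knockout clone 2. The genotype is taken from the labels alone, and these are called labelled knockout clones. Treatment, time, oxygen level and the allele made are not given in the labels. Below, clone 1 and clone 2 always mean the knockout clones. Each knockout clone is a single line. Nothing in the labels says that libraries of a clone came from separate cultures, so the spread behind each p-value may be technical.

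Glycolysis splits glucose into pyruvate in the cytosol, and lactate dehydrogenase and the lactate carriers dispose of pyruvate when it is not oxidised in mitochondria. HIF is a pair of a regulated alpha subunit and a stable beta subunit. With oxygen present, prolyl hydroxylases mark the alpha subunit for degradation; without it, the factor accumulates and raises transcription of most glycolytic enzymes, glucose transporters, growth factors for vessels and its own hydroxylases. In neural tissue astrocytes and progenitors are known for high glycolysis, and neurons for a different set of isoenzymes.

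Library totals ran from 58871554 to 69530032 counts. Levels are given in CPM, counts scaled to library size by TMM. Astrocyte markers (9 genes) summed to 8509 to 8540 CPM in parental cells, 2610 to 2681 in clone 1 and 3134 to 3158 in clone 2, while 8 proliferation markers summed to 47.0 to 49.2, 1144 to 1170 and 728 to 730.5 CPM. Neural progenitor markers (9 genes) lay between 2522 and 3111 CPM in all libraries, and oligodendrocyte lineage markers (8 genes) at 1290 to 1292, 5243 to 5346 and 6189 to 6454 CPM. Neuron markers (8 genes) summed to 1067 to 1075, 1351 to 1506 and 1041 to 1064 CPM, with 4 of the 8 called lower. Map2 alone made up 971 to 1480 CPM of that sum. Microglia, endothelial, fibroblast and red blood cell markers summed to at most 5.16 CPM in any library, and no marker of any list was at 0 in all libraries. Of the markers tested, 6 of 9 astrocyte genes were called lower and 1 higher, and 8 of 8 proliferation genes were called higher. The sums of neural progenitor and oligodendrocyte lineage markers hold genes that were called opposite ways. Of 9 neural progenitor genes 3 were called higher and 3 lower, and Vim alone made up 1226 to 1979 CPM of that sum. Of 8 oligodendrocyte lineage genes 3 were called higher and 2 lower. These markers moved with the groups compared below, and their part in the results was not tested. In bulk RNA, fewer cells of a type and less RNA per cell cannot be told apart. Which of the 2 library kits named in the protocol made which library is not given, so kit and group cannot be told apart.

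Of the 39 genes with enough counts to test, 18 passed the test of labelled knockout against parental cells when each clone counted as 1 replicate: 12 rose and 6 fell. The spread in that test mixes differences between the knockout clones with differences between the parental libraries, which may not be separate clones. Over all 24506 genes tested, 13.0% were called higher and 13.6% lower. Most of the 40 genes are abundant, and abundant genes were called more often. Of the genes averaging 5 CPM or more, 34.6% were called (20.6% higher and 14% lower), against 15 of the 34 member genes in that class (11 higher and 4 lower). The median log2 difference of the 39 genes was 0.66, and that of all genes tested 0.03. Hk2, Pgk1, Eno1, Pkm, Pdk1, Hif1a, Egln1, Egln3, Vegfa, Ero1l, Ankrd37 and P4ha1 rose, and Eno2, Slc2a3, Slc16a1, Pfkfb3, Epas1 and P4ha2 fell. Without either one of the parental libraries only 8 stayed past the threshold: Hk2, Eno1, Hif1a and Egln3 higher, and Eno2, Slc16a1, Pfkfb3 and Epas1 lower. The other 10 kept their direction with adjusted p between 0.065 and 0.267. With 1 parental library left, the fit has 1 residual degree of freedom and takes its spread from the clones alone. Car9, a carbonic anhydrase and known HIF target, had 2 to 10 counts a library and was not tested.

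Each labelled knockout clone was also set against the same 2 parental libraries, so these comparisons share their controls. In clone 1, 20 of the 39 genes were higher and 16 lower, beside 27.3% and 27.2% of the 23400 genes tested. In clone 2, 23 were higher and 10 lower, beside 26.7% and 26.8% of all genes. Of the genes averaging 5 CPM or more, 73.1% were called in clone 1 and 70.7% in clone 2, against 31 and 29 of the 34 member genes of that class. The median log2 difference of the 39 genes was 0.15 in clone 1 and 0.97 in clone 2, while that of all genes was -0.01 and 0.02.

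**Figure D1:**
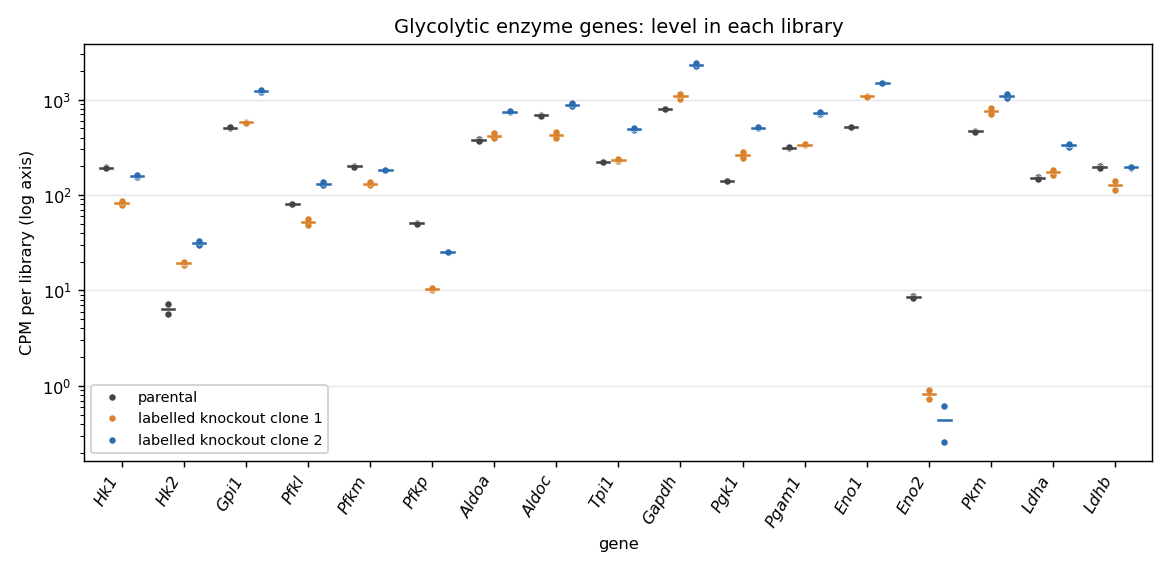
Level of the 17 glycolytic enzymes in each of the 6 libraries, in CPM on a log axis; points are libraries, coloured by group, and short lines are group means of 2 libraries. Gapdh lies highest in clone 2 (2221 and 2420 CPM), and Eno2 falls from 8.64 and 8.42 CPM in parental cells to under 1 CPM in every labelled knockout library.

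Of the 17 glycolytic enzymes, 4 rose and 1 fell with the clones as replicates, and 12 did not pass the test. Beside them, 13.0% of all genes tested were called higher and 13.6% lower, and 20.6% and 14% of those averaging 5 CPM or more. The median log2 difference was 0.73. Summed over the 17 enzymes, the parental libraries held 4919 and 4888 CPM, clone 1 5547 and 6006 CPM, and clone 2 10280 and 10800 CPM. This is 0.494% and 0.489% of parental counts, 0.543% and 0.593% in clone 1, and 1.04% and 1.09% in clone 2. The 2 libraries of clone 1 are the least alike of the 3 pairs (chi-square per gene of 24.8, against 3.78 for parental and 5.33 for clone 2), and 15 of the 17 enzymes were higher in its second library, by a median of 0.17 on the log2 scale. The same count in clone 2 was 15 of 17, by a median of 0.07, and in parental cells 5 of 17.

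Hexokinase traps glucose in the cell as glucose 6-phosphate. Hk2 (chr6:82725025-82774454, GRCm38), the inducible form, stood at 7.22 and 5.62 CPM in parental cells, at 18.4 and 19.96 CPM in clone 1 and at 29.7 and 32.8 CPM in clone 2. All 4 labelled knockout libraries lay above both parental ones, as they lay to one side for 56.6% of all genes tested. The rise was 4.02-fold with the clones as replicates (log2 difference 2.00, SE 0.28, adjusted p = 0.00681). Hk1, the widely expressed form, went the other way, with 194 and 192 CPM in parental cells, 77.8 and 86.1 in clone 1 and 155 and 164 in clone 2. It was lower in each clone (log2 -1.24 and -0.28) but not past the threshold over the clones (adjusted p = 0.21). Per kilobase of exon, Hk2 made up 5.04% and 4.01% of the hexokinase sum in parental cells, 25.2% and 24.9% in clone 1 and 21.5% and 22.2% in clone 2.

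Gpi1, which turns glucose 6-phosphate into fructose 6-phosphate, had 503.8 and 513 CPM in parental cells, 582 and 568 in clone 1, and 1199 and 1255 in clone 2. The liver form of phosphofructokinase, Pfkl, had 80.6 and 81.2 CPM in parental cells, 48.5 and 56.0 in clone 1, and 128 and 136 in clone 2. Pfkl was thus below parental in clone 1 (log2 -0.63, SE 0.06) and above it in clone 2 (0.70, SE 0.06). The platelet form Pfkp fell in both, from 51.4 and 49.6 CPM to 10.1 and 10.6 in clone 1 and to 25.1 and 25.4 in clone 2. Its exons overlap those of Pitrm1 on the other strand over 748 bases, and strand handling is not given, so the level of Pfkp is uncertain. Pfkm, the muscle form, was the largest part of the family per kilobase (71.2% to 82.6% in every library) and was lower in both clones (log2 -0.59 and -0.13); the call in clone 2 was lost without any 1 of the parental or clone 2 libraries. None of the 3 forms passed the test over the clones (adjusted p = 0.0648 for Pfkp).

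Aldolase cleaves fructose 1,6-bisphosphate into triose phosphates. Aldoc, the brain form and a common astrocyte marker, had 685 and 680.3 CPM in parental cells, 400.0 and 455 in clone 1, and 854 and 919 in clone 2. The clones lay on opposite sides of the parental libraries: log2 -0.68 (SE 0.06) in clone 1 and 0.38 (SE 0.06) in clone 2. Aldoa had 384 and 372 CPM in parental cells, 393 and 447 in clone 1, and 739 and 757 in clone 2. Its small rise in clone 1 (log2 0.15) lost its call without either parental library or without the second clone 1 library. The call was also lost with upper quartile scaling, with the filter of 5 CPM and in DESeq2. The share of Aldoc in the aldolase sum per kilobase went from 61.4% and 62.0% in parental cells to 47.6% in both clone 1 libraries and to 50.7% and 52.0% in clone 2. The summed astrocyte markers were lower in both clones, and their part in these values was not tested.

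Tpi1, the triose phosphate isomerase, had 222 CPM in each parental library; clone 1 had 225 and 237 CPM, and clone 2 had 477 and 500.4 CPM. Gapdh, the dehydrogenase often used as a loading control, had 792 and 794 CPM in parental cells, 1025 and 1151 in clone 1, and 2221 and 2420 in clone 2. In clone 2 it was 2.93-fold above parental (log2 1.55, SE 0.06, adjusted p = 4.83e-13), and over the clones it did not pass the test (adjusted p = 0.0819). Gapdh has 78 near-identical gene models, which together carried 89.9% to 115% of its own counts by library, so how its reads were split is uncertain.

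Pgk1 (chrX), the phosphoglycerate kinase that makes ATP, rose from 141 and 140.1 CPM in parental cells to 247 and 280.1 in clone 1 and to 505 and 514 in clone 2. All 4 labelled knockout libraries lay above both parental ones, as they lay to one side for 56.6% of all genes tested. The rise over the clones was 2.82-fold (log2 1.49, SE 0.33, adjusted p = 0.0299). Pgam1, the mutase of the next step, had 307 and 321 CPM in parental cells, 334 and 339 in clone 1, and 711 and 735 in clone 2. It did not pass the test over the clones (adjusted p = 0.184); the log2 difference was 1.20 (SE 0.04) in clone 2, where it was called, and 0.10 (adjusted p = 0.0564) in clone 1. A near-identical pseudogene, Pgam1-ps2, carried 45.9% as many counts as Pgam1.

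Enolase dehydrates phosphoglycerate. Eno1, the ubiquitous form, rose from 517 and 511 CPM in parental cells to 1079 and 1076 in clone 1 and to 1493 and 1487 in clone 2. The rise was 2.56-fold over the clones (log2 1.36, SE 0.17, adjusted p = 0.00503). Its near-identical models carried 32.8% as many counts. Eno2, known as the neuron form, fell from 8.64 and 8.42 CPM in parental cells to 0.732 and 0.903 in clone 1 and to 0.619 and 0.260 in clone 2. In counts these are 554 and 496, then 48 and 62, then 41 and 16, a 13.2-fold fall over the clones (log2 -3.72, SE 0.32, adjusted p = 0.00139). Per kilobase, Eno2 was 1.87% and 1.85% of the enolase sum in parental cells and at most 0.0959% in a labelled knockout library. Of the 8 neuron markers 4 were also called lower over the clones and none higher, but some had higher levels in clone 1. Map2 had 971 and 978 CPM in parental cells, 1480 and 1326 in clone 1, and 1047 and 1023 in clone 2. Syt1 had 3.01 and 2.44, then 8.54 and 8.87, then 2.93 and 3.68 CPM. The part of these markers in the Eno2 result was not tested.

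Pkm, the pyruvate kinase expressed in most tissues, rose from 468 and 461 CPM to 705 and 819 in clone 1 and to 1050 and 1137 in clone 2, 2.04-fold over the clones (log2 1.03, SE 0.19, adjusted p = 0.0148). Gene counts do not separate its M1 and M2 splice forms. Lactate dehydrogenase has an A subunit, which is known to favour lactate, and a B subunit. Ldha had 155 and 147 CPM in parental cells, 163 and 183 in clone 1, and 321 and 341 in clone 2. Ldhb had 200 and 192 CPM in parental cells, 114 and 141 in clone 1, and 191 and 198 in clone 2, so the 2 forms were called in opposite directions in clone 1 (log2 0.19 and -0.63). The call of Ldha in clone 1 was lost with the filter of 5 CPM and without the second parental library (adjusted p up to 0.161). Ldhb made up 73.0% and 73.3% of the sum per kilobase in parental cells, 59.5% and 61.9% in clone 1, and 55.6% and 55% in clone 2.

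**Figure D2:**
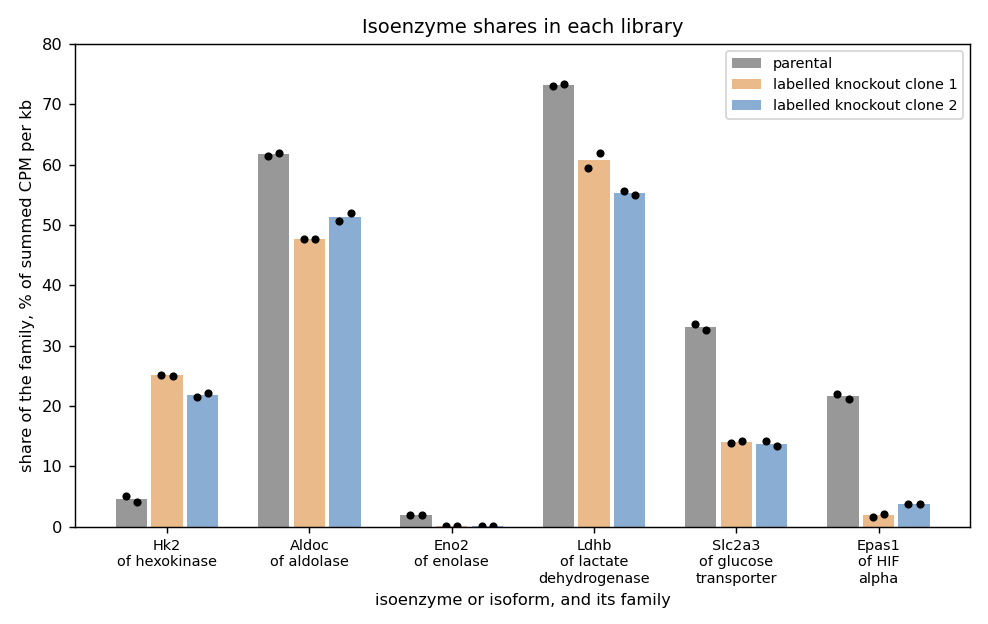
Share of one isoenzyme or isoform in its family in each library, as a percent of the family's summed CPM per kilobase of exon; bars are group means of 2 libraries, points are libraries. Hk2 rises from 4.01 to 5.04% in parental cells to 21.5 to 25.2% in labelled knockout libraries, while Aldoc, Eno2, Ldhb, Slc2a3 and Epas1 are lower there.

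Shares per kilobase depend on the exon model, because exon unions can hold exons that are rarely used. They are given as descriptions, with no test.

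Among the transporters, Slc2a1 (GLUT1) had 27.5 and 28.7 CPM in parental cells, 35.6 and 35.0 in clone 1, and 48.6 and 49.4 in clone 2. It was higher in each clone and just missed the threshold over the clones (log2 0.62, SE 0.18, adjusted p = 0.0562). Slc2a3 (GLUT3), the high-affinity carrier known from neurons, fell from 28.7 and 28.6 CPM to 11.9 and 11.96 in clone 1 and to 16.5 and 15.7 in clone 2 (2.00-fold, SE 0.17 on the log2 scale, adjusted p = 0.0134). Slc2a3 took 33.6% and 32.5% of the sum of the 2 glucose carriers per kilobase in parental cells and 13.3% to 14.2% in labelled knockout libraries. The lactate carrier Slc16a1 (MCT1) fell from 69.5 and 67.9 CPM to 25.1 and 29.0 in clone 1 and to 29.7 and 30.9 in clone 2, which is 2.34-fold over the clones (log2 -1.23, SE 0.10, adjusted p = 0.00127). Slc16a3 (MCT4), a carrier known to be induced by HIF, lay at 1.63 to 2.53 CPM in all libraries; it did not pass the test over the clones and was lower in clone 1 (log2 -0.60, SE 0.16, adjusted p = 0.00567). Over the clones, none of the 4 transporters rose and 2 fell, beside 13.0% higher and 13.6% lower over all genes tested.

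The 3 kinases act where glucose carbon is diverted. Pdk1, which blocks pyruvate dehydrogenase, rose from 26.1 and 27.2 CPM to 59.7 and 61.9 in clone 1 and to 109 and 108 in clone 2, a 3.25-fold rise over the clones (log2 1.70, SE 0.29, adjusted p = 0.0137). Pfkfb3, which makes the activator of phosphofructokinase, fell from 84.0 and 81.6 CPM to 20.5 and 21.0 in clone 1 and to 18.5 and 18.2 in clone 2. The 4 labelled knockout libraries lay between 18.2 and 21.0 CPM, a fall of 4.14-fold (log2 -2.05, SE 0.10, adjusted p = 0.000373). Pfkfb4, an enzyme of the same family, had 75 and 71 counts in parental cells, 3 and 3 in clone 1, and 18 and 25 in clone 2, and was not past the threshold over the clones (adjusted p = 0.0664). At these counts the SE of its difference from parental cells was 0.43 in clone 1 and 0.31 in clone 2, both on the log2 scale.

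**Figure D3:**
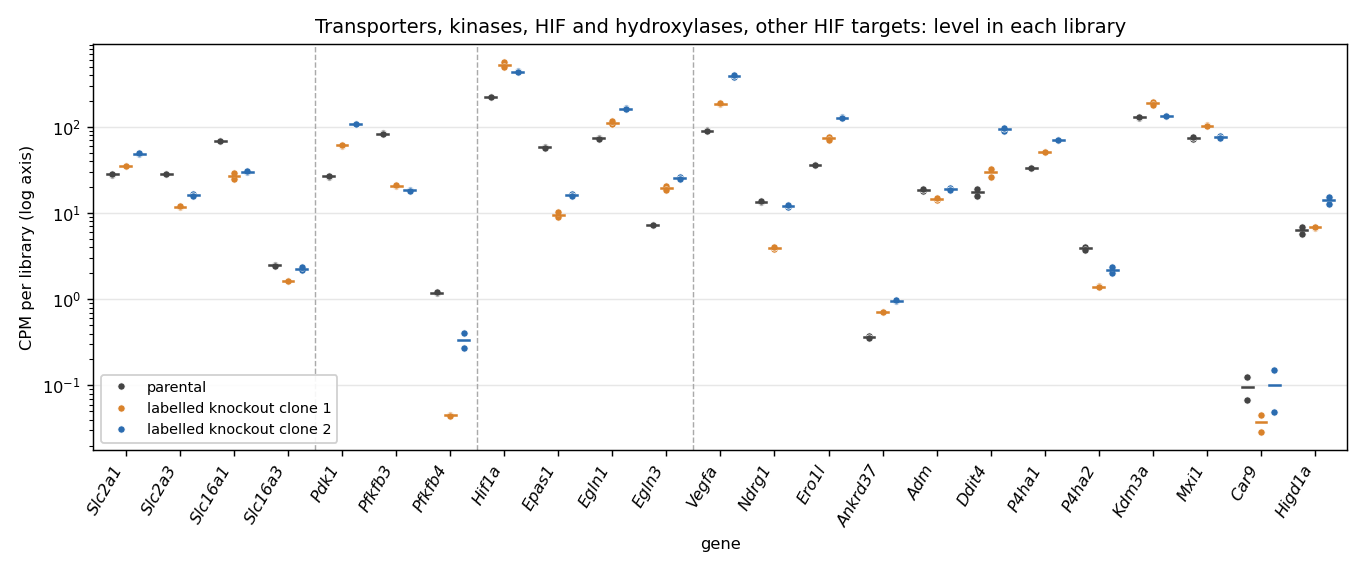
Level of the transporters, kinases, HIF genes and other HIF targets in each of the 6 libraries, in CPM on a log axis; points are libraries, coloured by group, and short lines are group means of 2 libraries. Epas1, Pfkfb3 and Slc16a1 are lower in the 4 labelled knockout libraries, while Hif1a, Egln3, Vegfa and Ero1l are higher.

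The 2 alpha subunits went in opposite directions. Hif1a, the subunit found in most cells, rose from 221 and 224 CPM to 559.8 and 495 in clone 1 and to 445 and 428 in clone 2 (2.22-fold, log2 1.15, SE 0.11, adjusted p = 0.00214). It was 1 of 5 among the 39 genes that were lower in clone 2 than in clone 1 (log2 -0.27). Epas1, which codes for HIF-2 alpha and is known from astrocytes and vessels, fell from 58.9 and 57.3 CPM to 8.95 and 10.2 in clone 1 and to 16.5 and 15.8 in clone 2 (4.41-fold, log2 -2.14, SE 0.26, adjusted p = 0.00446). The endothelial markers summed to at most 4.46 CPM in any library; the fall of the astrocyte markers moved with that of Epas1, and its part was not tested. Per kilobase, Epas1 took 22% and 21.2% of the alpha sum in parental cells, 1.66% and 2.13% in clone 1, and 3.76% and 3.74% in clone 2. The protein of these subunits is set mainly by degradation and was not measured here.

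The prolyl hydroxylases Egln1 and Egln3, themselves known HIF targets, rose, while the third, Egln2, which is not among the 40 genes, did not pass the test over the clones (log2 -0.03, SE 0.15, adjusted p = 0.899) and was lower in clone 1 (log2 -0.24, adjusted p = 0.0449). Egln3 went from 7.36 and 7.35 CPM to 20.4 and 18.4 in clone 1 and to 26.4 and 25.1 in clone 2 (3.14-fold, log2 1.65, SE 0.18, adjusted p = 0.00288). Egln1 went from 75.3 and 73.3 CPM to 107 and 116 in clone 1 and to 164 and 162 in clone 2 (log2 0.92, SE 0.19, adjusted p = 0.0233). In both genes all 4 labelled knockout libraries lay above both parental ones, as they lay to one side for 56.6% of all genes tested.

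Of the 11 other HIF targets tested, 4 rose, 1 fell and 6 did not pass the test, beside 13.0% higher and 13.6% lower over all genes tested. Vegfa, the vessel growth factor, rose from 91.6 and 89.6 CPM to 182 and 192 in clone 1 and to 379.7 and 399 in clone 2 (3.26-fold, log2 1.70, SE 0.36, adjusted p = 0.0277). Ero1l, an oxidase of the endoplasmic reticulum, rose from 35.7 and 35.9 CPM to 77.3 and 71.2 in clone 1 and to 129 and 128 in clone 2 (2.90-fold, log2 1.54, SE 0.27, adjusted p = 0.0153). Ankrd37 had 24 and 21 counts in parental cells, 47 and 49 in clone 1, and 63 and 60 in clone 2, and was called higher (log2 1.23, SE 0.29, adjusted p = 0.0334). Its exons overlap Lrp2bp on the other strand over 22.7% of their length, so these few counts are uncertain.

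The 2 collagen prolyl hydroxylases went opposite ways. P4ha1 had 33.5 and 33.4 CPM in parental cells, 50.9 and 51.3 in clone 1, and 69.8 and 71.2 in clone 2 (log2 0.89, SE 0.17, adjusted p = 0.0181). P4ha2 fell from 4.04 and 3.77 CPM to 1.42 and 1.37 in clone 1 and to 2.02 and 2.37 in clone 2 (log2 -1.09, SE 0.27, adjusted p = 0.038). P4ha2 is the smaller part of the pair per kilobase: 7.36% and 6.92% in parental cells and 1.73% to 2.15% in labelled knockout libraries.

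Ddit4, an inhibitor of mTORC1 signalling, had 18.9 and 16.0 CPM in parental cells, 26.5 and 32.8 in clone 1, and 89.7 and 97.3 in clone 2, and was higher in each clone (log2 0.77 and 2.42) but not over the clones (adjusted p = 0.0901). Ndrg1, a stress gene, had 13.4 and 13.6 CPM in parental cells, 3.84 and 4.08 in clone 1, and 11.9 and 12.5 in clone 2, and was called lower in clone 1 alone of the 2 (log2 -1.77, SE 0.09). Higd1a, a mitochondrial protein of the hypoxia response, had 6.91 and 5.77 CPM in parental cells, 6.65 and 6.97 in clone 1, and 12.9 and 15.4 in clone 2. Adm, Kdm3a and Mxi1 differed by at most 0.55 on the log2 scale in each clone. Adm fell and Kdm3a and Mxi1 rose in clone 1, and in clone 2 none of these 3 passed the test.

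HIF is known to bind the core ACGTG or GCGTG. Promoter windows of 300 bases (250 before to 50 after the start, RefSeq, GRCm38.p6) were found for 37 of the 40 genes; Slc2a3, Epas1 and Ndrg1 had none. On either strand, ACGTG or GCGTG was present for 34 of the 37 (91.9%), against 46.7% of all genes of the table, 64.0% of genes tested and 69.7% of genes tested that averaged 5 CPM or more. A gene counts when any of its windows matches; by window the shares were 78.2% of 55 for these genes and 43.8% of 32851 overall. ACGTG alone was present for 26 (70.3%), against 30.0% of tested genes averaging 5 CPM or more. For GCGTG alone the gap was smaller, with 25 (67.6%) against 58.3% of tested genes averaging 5 CPM or more. Of the genes called higher over the clones, 12 of 12 held one of the 2 cores, of those called lower 3 of 4, and of those not called 18 of 20. CACGTG, which reads as ACGTG on both strands, was present for 5 of the 37 (13.5%), against 8.09% of all genes and 11.9% of tested genes averaging 5 CPM or more. The genes were chosen by name and role, and HIF targets are known for this core. The shares are therefore descriptions, and a match is not a binding site. 5 windows without the 50 bases after the start are shown, 3 of genes higher in both clones (Pgk1, Ero1l and Ldha) and 2 of genes that fell (Slc16a1 and Pfkfb3), chosen after values were seen. Capitals mark ACGTG or GCGTG on either strand, with the complement CACGT or CACGC where the core lies on the other strand.

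Pgk1 (chrX:106186850-106187099, + strand): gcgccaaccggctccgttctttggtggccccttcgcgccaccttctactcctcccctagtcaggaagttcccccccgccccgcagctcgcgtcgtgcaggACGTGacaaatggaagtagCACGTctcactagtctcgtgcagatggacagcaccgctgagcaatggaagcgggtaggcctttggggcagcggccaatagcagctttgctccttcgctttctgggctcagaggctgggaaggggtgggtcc
Ero1l (chr14:45318573-45318822, - strand): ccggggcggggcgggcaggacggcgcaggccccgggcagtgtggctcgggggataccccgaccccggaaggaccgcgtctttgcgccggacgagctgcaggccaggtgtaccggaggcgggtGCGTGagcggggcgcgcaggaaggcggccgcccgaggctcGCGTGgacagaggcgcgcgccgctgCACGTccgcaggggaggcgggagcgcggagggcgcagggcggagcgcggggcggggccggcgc
Ldha (chr7:46845554-46845803, + strand): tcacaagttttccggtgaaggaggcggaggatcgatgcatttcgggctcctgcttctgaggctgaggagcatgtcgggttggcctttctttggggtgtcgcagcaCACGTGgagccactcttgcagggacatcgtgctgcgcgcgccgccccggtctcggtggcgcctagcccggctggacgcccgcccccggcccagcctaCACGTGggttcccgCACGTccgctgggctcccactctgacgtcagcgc
Slc16a1 (chr3:104638414-104638663, + strand): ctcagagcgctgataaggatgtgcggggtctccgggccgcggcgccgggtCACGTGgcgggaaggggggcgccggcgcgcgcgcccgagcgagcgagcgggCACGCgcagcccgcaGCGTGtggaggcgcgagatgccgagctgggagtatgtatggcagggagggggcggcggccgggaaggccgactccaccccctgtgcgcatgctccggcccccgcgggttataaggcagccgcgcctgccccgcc
Pfkfb3 (chr2:11502091-11502340, - strand): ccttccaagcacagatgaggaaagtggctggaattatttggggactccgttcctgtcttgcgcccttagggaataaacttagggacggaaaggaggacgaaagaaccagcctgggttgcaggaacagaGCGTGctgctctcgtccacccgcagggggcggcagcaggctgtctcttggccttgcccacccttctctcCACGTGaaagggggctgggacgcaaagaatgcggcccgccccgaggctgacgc

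These windows hold 2 sites for Pgk1, 3 for Ero1l, 3 for Ldha, 3 for Slc16a1 and 2 for Pfkfb3. Ldha and Pfkfb3 each have another window with 1 site before the start, and the window of Eno2, which fell, holds neither core.

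Set directly against each other, the clones differed in 37 of the 39 genes: clone 2 was above clone 1 in 32 and below it in 5. Over all genes tested 16.1% were called higher in clone 2 and 20.3% lower; of those averaging 5 CPM or more, 58.1% were called in either direction (25% higher and 33.1% lower), against 33 of the 34 member genes of that class (29 higher and 4 lower). The median log2 difference was 0.70 for the 39 genes and -0.01 for all genes. Glycolytic enzymes were above clone 1 in 16 of 17 cases with a median of 0.95, the exception being Eno2, and 7 of them differed by at least 1: Gpi1, Pfkl, Pfkp, Aldoc, Tpi1, Gapdh and Pgam1. Outside the enzymes, Ndrg1 (log2 1.62, SE 0.09), Ddit4 (1.66, SE 0.11), Vegfa (1.06, SE 0.04), Higd1a (1.06, SE 0.11) passed that size, as did Pfkfb4 (2.86, SE 0.52), which had 3 counts in each clone 1 library. Hif1a, Kdm3a, Mxi1, Pfkfb3 and Eno2 were lower in clone 2, and Slc16a1 and Ankrd37 were not told apart. The difference of Eno2 lost its call without either parental library, the second clone 1 library or the second clone 2 library, and that of Pfkfb3 without either parental or either clone 2 library. The call of Pfkfb3 was also lost with upper quartile scaling, with no filter and in DESeq2.

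**Figure D4:**
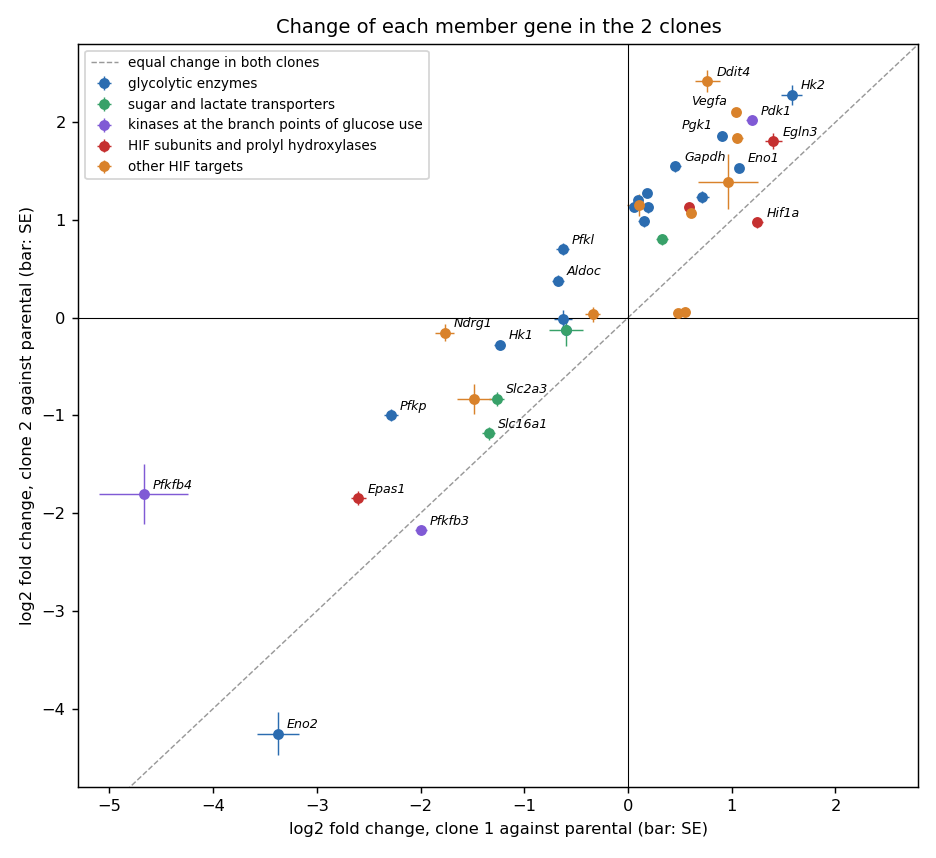
log2 fold change of each member gene in clone 1 (x axis) and clone 2 (y axis) against the same parental libraries, with SE bars; the dashed line marks equal change. Most points lie above the line, and Aldoc and Pfkl lie below 0 in clone 1 and above 0 in clone 2.

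**Figure D5:**
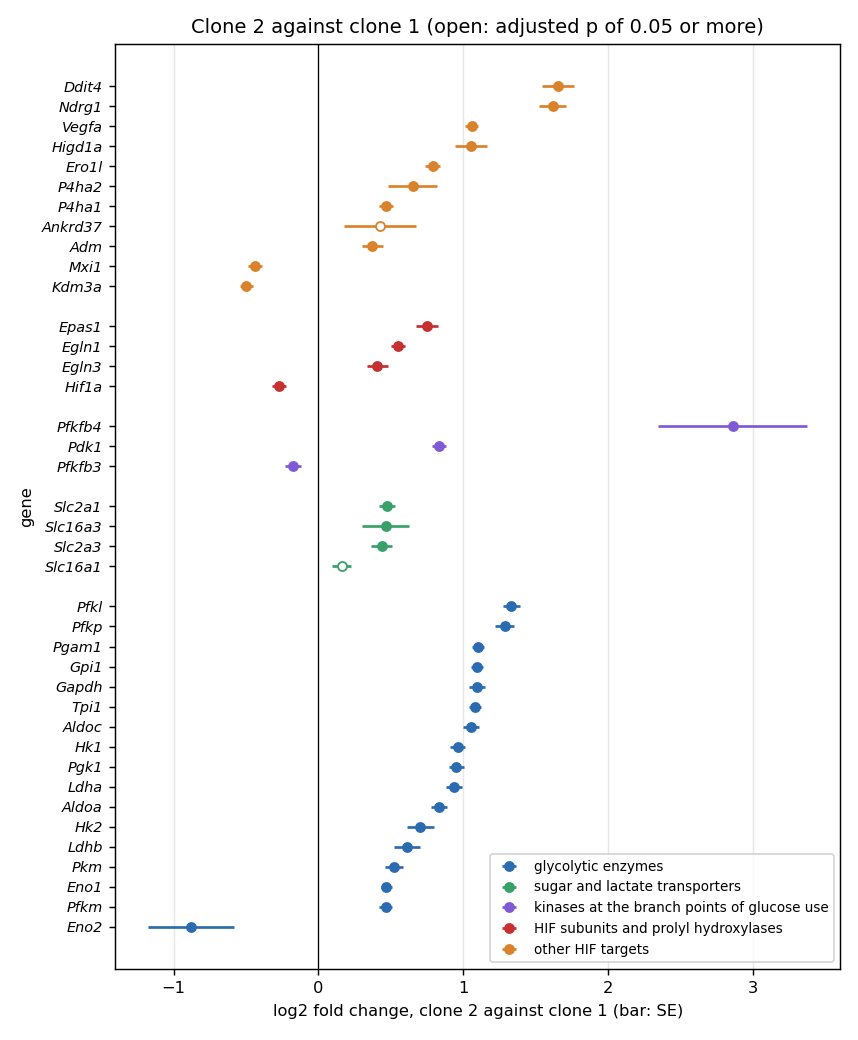
log2 difference of clone 2 and clone 1 for each of the 39 genes tested, with SE bars, by role; open points did not pass the test. Of the 17 glycolytic enzymes 16 lie above 0, and Eno2 lies below.

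By pattern over the clones, which share their controls, 18 of the 39 genes were higher in both, 10 lower in both, and 2 (Aldoc and Pfkl) lower in clone 1 and higher in clone 2. The same patterns held for 19.3%, 19.9% and 0.991% of all genes tested, and for 29.6%, 23.9% and 1.74% of those averaging 5 CPM or more. Another 6 passed the test in clone 1 and not in clone 2 (Adm, Kdm3a, Ldhb, Mxi1, Ndrg1 and Slc16a3), and 3 in clone 2 and not in clone 1 (Higd1a, Pgam1 and Tpi1), beside 13.1% and 12.2% of all genes. For these 9 the direct test found clone 2 above clone 1 in all but Kdm3a and Mxi1; that call was lost for Slc16a3 in DESeq2 and without any 1 of the 4 clone libraries (adjusted p = 0.0704 to 0.162).

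Genes of the same pathways outside the 40 give the surroundings; their counts stand beside 13.0% higher and 13.6% lower over all genes tested, and several are near those shares. Of 21 other glycolysis genes tested, 4 rose and 1 fell over the clones: Tigar, a phosphatase that lowers glycolytic flux, was higher (6.59 and 6.96 CPM in parental cells, 15.4 to 16.5 in labelled knockout libraries; log2 1.26, SE 0.13). Pgp, a phosphatase of glycolytic by-products, rose by 1.19 (SE 0.16), and Eno1b, a near-identical copy of Eno1 whose reads may be shared with it, rose by 1.32 (SE 0.19). Of 8 pentose phosphate genes 1 rose, Pgls (log2 0.80, SE 0.17). Of 13 genes of pyruvate dehydrogenase and its control, 4 rose and 2 fell: Pdk3, another inhibitory kinase, rose by 1.59 (SE 0.14), Pdha1, a subunit of the enzyme, rose by 0.63 (SE 0.10), and Pdp1, the activating phosphatase, fell by 0.92 (SE 0.09).

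Among 10 other sugar and lactate carriers tested, 1 rose and 3 fell, with Slc2a8 higher by 1.58 (SE 0.18). The lactate carrier Slc16a7 fell by 1.49 (SE 0.21) and the glucose carriers Slc2a12 and Slc2a4 also fell; these 3 average under 5 CPM and are named after their values were seen. Of 13 genes of oxygen sensing, none rose and 2 fell: Arnt2, a beta subunit common in neural cells, fell by 0.92 (SE 0.09) from 496.5 and 503 CPM to 250 to 271 CPM, and Elob, a part of the ubiquitin ligase that removes HIF alpha, fell by 0.58 (SE 0.09). Of 39 further HIF targets tested, 13 rose and 10 fell, with a median log2 difference of 0.08. Angptl4, a secreted regulator of lipid use, fell by 5.17 (SE 0.24), Igfbp3, a binding protein of insulin-like growth factors, rose by 5.43 (SE 0.31), and Bnip3, a mitophagy receptor, rose by 1.36 (SE 0.13). The wider HIF targets thus held genes called in both directions.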

How the data were processed

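RNA-seq counts of 6 libraries were used. The authors deposited whole-number counts per gene, not normalized; per the submitters' processing notes they used STAR and featureCounts (no versions) and GRCm38.p6 or mm10. No source used here gives the strand and multimapping settings. Columns were matched to samples by name and groups came from the sample titles.

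Counts were tested in R 4.3.3 with edgeR 4.0.16 (TMM, filterByExpr with a minimum count of 10, robust quasi-likelihood test, Benjamini-Hochberg adjustment over all genes tested, threshold 0.05). For labelled knockout against parental, the 2 libraries of each clone were summed (4 columns, 2 residual degrees of freedom). A second fit of all 6 libraries, with 3 groups and 3 residual degrees of freedom, gave the contrasts of either clone with parental and of clone 2 with clone 1. The SE is the size of the log2 difference divided by the square root of F. CPM per kilobase used exon unions of a GENCODE annotation of GRCm38. Near-identical copies were transcripts matching over at least 200 bases at 95% identity (BLAST 2.17.0). The fits were run on simulated counts in which both clones had the same change and no spread between them. That run cannot tell how the test with the clones as replicates handles differences between clones. DESeq2 1.42.0 and limma 3.58.1 were alternatives.

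Library numbers within the 3 groups showed no pairing of the samples (correlations of deviations -0.00746, -0.0152 and 0.0191). This did not check whether the parental numbers match the knockout clone numbers. Members and lists were chosen with earlier results of these data known. All members could be named. Values in each library are given for members called over the clones with a size of at least 1 on the log2 scale, called in opposite directions in the clones, or called between clones at that size, and for families with opposite calls, and from each wider list up to 3 genes with the smallest adjusted p and a mean of at least 5 CPM. Values in each library of Slc2a1, Slc2a3, Egln1 and P4ha1 were added outside this rule. The gene the labels name as knocked out is not reported here. A planned comparison of protein sequences was not analysed here. Reads are not independent molecules.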

Additional observations from a re-analysis of the deposited data

Results flagged for a closer look

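2 member genes were called in opposite directions in the clones, and the direct test of the difference between the clones was past the threshold in both. Pfkl differed by 1.33 on the log2 scale (clone 2 above clone 1; SE 0.06, adjusted p = 9.25e-11), and both clone 2 libraries were above, and both clone 1 libraries below, the parental ones. Aldoc differed by 1.05 (SE 0.06, adjusted p = 1.4e-09), with the same order of libraries. This choice was narrowed to members with opposite directions after values were seen: 37 of the 39 members tested differ between the clones in the direct test.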

How the results depend on the processing

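The number of members called with the clones as replicates was the least stable: 18 in the main fit, 37 with libraries as replicates and the average of the clone effects (23 higher, 14 lower), and 8 to 38 with 1 library or clone left out. The low end is from leaving out either parental library, which leaves 1 residual degree of freedom and a spread from the clones alone. The share of all genes called also fell there. The high end is from leaving out a clone. The libraries of the remaining clone are then summed to 1 column. This also leaves 1 residual degree of freedom, and the spread comes from the parental libraries alone. DESeq2 gave 23, the unfiltered fit 17 and the replicate block 18, with 17 of the main calls kept. With the clones as replicates, the block matched knockout clones to parental libraries by number, a pairing that was not checked. In the fit of 6 libraries it used the library numbers, which showed no pairing. There the block gave 37, 33 and 37 for clone 1, clone 2 and the clones against each other, beside 36, 33 and 37. Adding near-identical copies, an alternative chosen after seeing the data, gave 18, 37, 33 and 37. No member called reversed its direction under any alternative run. Calls were lost under at least 1 alternative for 10 genes with the clones as replicates (25 values), for Gpi1, Aldoa, Ldha and Ankrd37 in clone 1 (11 values), for Pfkm in clone 2 (5 values) and for Eno2, Slc16a3, Pfkfb3 and P4ha2 between the clones (17 values); the cause was not tested. Over all genes with the clones as replicates, the share called was 26.7% in the main fit, 56.5% with the average of the clone effects, 55.4% without clone 1, 55.6% without clone 2 and 16.1% with no filter. The depth limits Car9, Pfkfb4 and Ankrd37.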
